A study of Mus musculus with 6 samples.

Results

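The genes described here are the matrix metalloproteinases (MMPs), their tissue inhibitors (TIMPs), the ADAMTS proteases and the ADAMTS-like proteins of healing mouse flexor tendons. They were taken by symbol from the gene table (*Mmp*, *Timp*, *Adamts* and *Adamtsl* followed by a number), without the procollagen N-proteinase genes *Adamts2*, *Adamts3* and *Adamts14*, which gave 48 of 53819 listed genes. Flexor digitorum longus (FDL) tendons were transected and repaired in mice aged 10 to 12 weeks at surgery, and RNA was sequenced from 3 DTRScxLin and 3 WT tendons (1 tendon per library) that were harvested at D28 post-surgery. DTRScxLin mice (Scx-Cre+; DTR F/+) express the diphtheria toxin receptor in all cells that have ever expressed *Scx*, since the Scx-Cre driver is not inducible, and WT littermates (Scx-Cre-; DTR F/+) carry the same silent receptor allele without Cre. Both groups received diphtheria toxin (DT) in 5 daily injections from D14 to D18. Titles of the samples place day 28 after depletion and the protocol places it after surgery, and the protocol is followed here.

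MMPs are zinc-dependent endopeptidases, most of them secreted as inactive precursors, that cut collagens, gelatin, proteoglycans and other matrix proteins. TIMPs bind the active site of MMPs and block it. ADAMTS proteases carry thrombospondin repeats that anchor them in the matrix, and several of them cut aggrecan and versican, while ADAMTS-like proteins have the repeats but no protease domain. In tendon, these enzymes are known for the removal of damaged collagen after injury and for the turnover of the scar during remodeling.

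A set of 10 MMP genes lie side by side on chromosome 9 (*Mmp13*, *Mmp12*, *Mmp1b*, *Mmp3*, *Mmp1a*, *Mmp10*, *Mmp8*, *Mmp27*, *Mmp20* and *Mmp7*), with no other protein-coding gene between them in the RefSeq annotation of GRCm38.p6. The RefSeq promoter table of the same build matched 33 of the 48 genes. The 250 bases before each start were searched on both strands for the AP-1 letters TGACTCA or TGAGTCA, which are the reverse complement of each other and bind Fos and Jun factors, and for the TATA-box letters TATAAA. The AP-1 letters were found for 7 of the 10 neighbouring genes and for 0 of the 23 other matched genes, against 4.46% of all 32851 promoters in the table. The TATA letters were found for 10 of the 33 genes, against 12.37% of all promoters, and both motifs together for 6 genes, all of them in the chromosome 9 group, against 0.721% of all promoters. The 100 bases before the start are given for *Mmp13*, *Mmp3* and *Mmp10*, the abundant neighbours, for *Mmp1a*, their nearly undetected neighbour, and for *Adamts1* and *Timp1*, which had an unadjusted p under 0.05 between the genotypes. Capitals mark AP-1 and TATA letters, and the sequences read 5′ to 3′ on the strand of the gene (GRCm38.p6).
Mmp13, chr9:7272414-7272513, plus strand: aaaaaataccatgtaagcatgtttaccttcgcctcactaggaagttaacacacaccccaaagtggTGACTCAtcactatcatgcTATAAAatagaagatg
Mmp3, chr9:7445722-7445821, plus strand: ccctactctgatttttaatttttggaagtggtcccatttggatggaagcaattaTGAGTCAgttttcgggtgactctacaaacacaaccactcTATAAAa
Mmp10, chr9:7502242-7502341, plus strand: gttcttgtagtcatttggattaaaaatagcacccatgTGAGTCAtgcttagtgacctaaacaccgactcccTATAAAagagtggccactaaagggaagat
Mmp1a, chr9:7464041-7464140, plus strand: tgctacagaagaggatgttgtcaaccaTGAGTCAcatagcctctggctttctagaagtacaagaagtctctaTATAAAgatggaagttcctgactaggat
Adamts1, chr16:85803114-85803213, minus strand: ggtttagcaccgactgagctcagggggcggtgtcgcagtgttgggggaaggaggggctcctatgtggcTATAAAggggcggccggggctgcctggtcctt
Timp1, chrX:20870066-20870165, plus strand: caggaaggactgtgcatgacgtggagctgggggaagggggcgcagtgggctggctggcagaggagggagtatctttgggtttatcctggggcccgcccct
In these windows the AP-1 letters began 35 bases before the start in *Mmp13*, 46 in *Mmp3*, 63 in *Mmp10* and 73 in *Mmp1a*, and TATAAA followed closer to the start in each of the 4. *Adamts1* had only the TATA letters, 32 bases before its start, and *Timp1* had neither within 250 bases. A match of letters is a description, and no binding was measured in these tendons.

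The libraries held between 42744138 and 48854310 counts on genes, and the 48 genes together took between 1.13% and 2.08% of them. Tendon markers were present in every library, and a list of 10 of them (among them *Scx* and *Tnmd*) held 2.21% to 2.63% of counts in WT and 2.64% to 3.17% in DTRScxLin tendons. Most of that sum came from *Col1a1*, *Thbs4* and *Fmod*. In the fit described below, 8 of the 10 were above 0, against 51.5% of all genes tested, and *Fmod* and *Htra3* were below 0 (-0.17 and -0.41). Libraries stood apart in RNA of other tissues. Skeletal muscle RNA, summed over 20 genes that were all present in each library, took 2.83%, 2.56% and 2.05% in WT and 0.349%, 2.49% and 0.659% in DTRScxLin tendons (replicates 1 to 3, the order in which values are listed throughout). A keratinocyte list of 10 genes held 0.298% and 0.184% in WT replicates 1 and 2 and at most 0.0278% in the others. *Xist* was high in WT replicate 2 and DTRScxLin replicates 2 and 3, and the Y-linked *Ddx3y* in the other 3 libraries, so both groups held both sexes. In whole tendons, fewer cells of a type and less RNA per cell cannot be told apart. Normalized counts below are counts scaled by TMM to the mean library size, and log2 fold changes of DTRScxLin against WT are given ± their standard error (SE) from the quasi-likelihood fit of edgeR to the 17496 genes past its filter on low counts. The p-values set each genotype difference against the spread between tendons of a group. That spread was estimated from only 3 tendons per group, with information shared across genes. Adjusted p-values follow Benjamini and Hochberg over all genes tested.

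Of the 48 genes, 41 passed the filter. *Mmp21* had no count in any library. *Mmp1a*, *Mmp1b*, *Mmp7*, *Mmp20*, *Mmp24* and *Adamts13* were below the filter, with at most 10.4 normalized counts in any library. *Mmp1a* and *Mmp1b*, the mouse counterparts of the human interstitial collagenase, had 0 to 3.09 and 0 to 4.78 normalized counts, and *Mmp1a* lies among abundant neighbours and carries the same promoter letters. Counts per kilobase of exon, the scale on which genes can be compared with each other, ran from 59459 for *Mmp13* to 3.49 for *Adamts18* among the 41 genes (means over the 6 libraries). *Mmp13*, the main rodent collagenase, and *Mmp2*, gelatinase A, at 53822, led the order, followed by *Timp2* at 45827, *Timp1* at 19471 and *Mmp14*, the membrane-type enzyme that activates the MMP2 precursor, at 12268. The levels of the first 3 overlapped between tendons, and *Mmp13* alone ranged from 80619.6 to 296679 normalized counts. *Mmp13*, *Mmp2* and *Mmp14* together made up all but 6.21% to 8.04% of the summed MMP level per kilobase in every library. Among ADAMTS genes, the aggrecanase gene *Adamts5* was highest at 643 per kilobase, followed by *Adamts12* at 463 and *Adamts1* at 435.

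At an adjusted p under 0.05, edgeR called 0 of the 41 genes, and it called 0% of all genes tested. At an unadjusted p under 0.05 it had 8 of the 41, of which *Adamts1*, *Adamts16*, *Adamts5*, *Adamts19*, *Timp1* and *Mmp23* were higher and *Timp4* and *Mmp28* lower in DTRScxLin tendons. The 8 are 19.5% of the 41 genes, against 11% of all genes tested. In the higher direction the 6 are 14.6% against 5.52%, and in the lower direction the 2 are 4.88% against 5.45%. DESeq2 on the same counts called *Adamts1* and *Adamts16* higher and *Timp4* lower, which is 3 of 41 genes against 2.65% of all genes with an adjusted p (1.12% higher and 1.53% lower). The groups did not overlap in 7 of the 41 genes, or 17.1%, against 16.8% of all genes tested, and the directions were 5 higher (12.2% against 8.96%) and 2 lower (4.88% against 7.85%), so the share without overlap was near that of all genes. The fitted log2 fold change was above 0 in 29 of the 41 genes, with a median of 0.14, against 51.5% of all genes and a median of 0.0082. Without DTRScxLin replicate 1, 21 of them were above 0 and the median was 0.0004. Without it, 5 of 42 tested members had an unadjusted p under 0.05, against 7.26% of all genes. They were *Adamts1*, *Adamts16* and *Adamts19* in the higher direction (3.5% of all genes) and *Timp4* and *Mmp28* in the lower direction (3.76%). Without DTRScxLin replicate 2, edgeR called 3.02% of all genes (0.572% higher and 2.45% lower) and still 0 of 42 members.

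**Figure D1:**
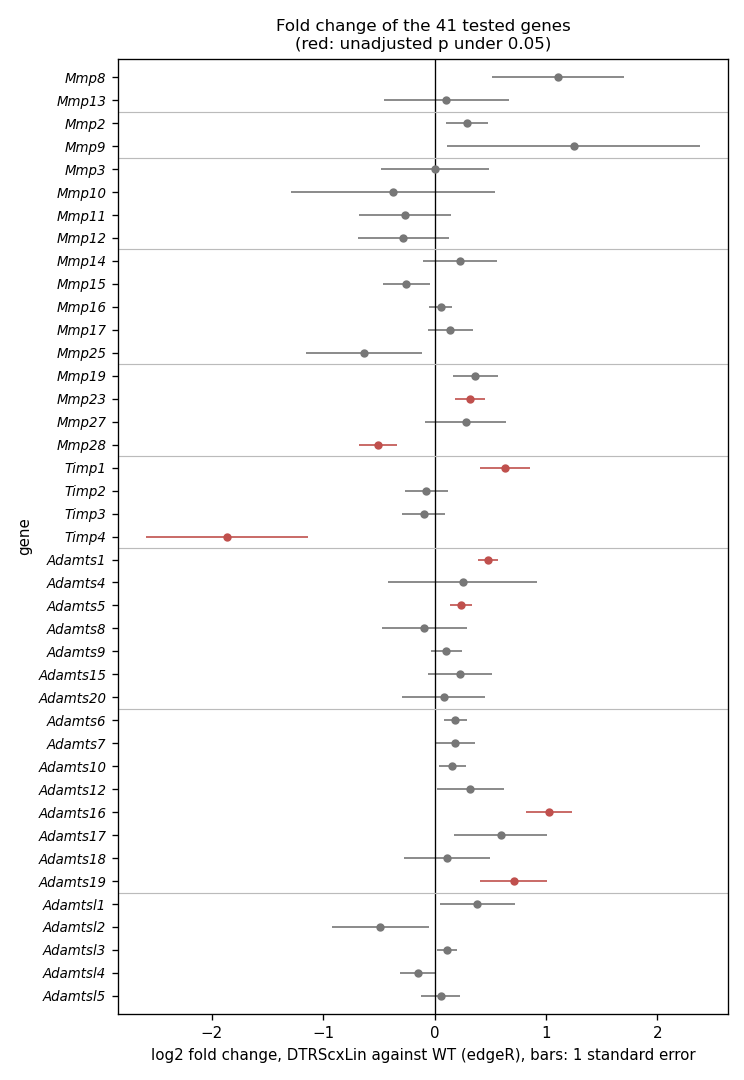
Fitted log2 fold change of DTRScxLin against WT tendons (x axis) for the 41 tested genes (y axis), from edgeR, with bars of 1 standard error. The 8 genes in red had an unadjusted p under 0.05, 6 on the higher and 2 on the lower side, and the widest bars belong to *Mmp9*, *Mmp10* and *Timp4*.

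The clearest differences were in the ADAMTS genes. *Adamts16*, a close relative of *Adamts18*, gave 247, 179.8 and 227 normalized counts across WT tendons, compared with 381, 397 and 551 across DTRScxLin tendons. Each DTRScxLin tendon was above each WT tendon, with means of 218 ± 34.3 and 443 ± 93.6 (SD, n = 3 each), 2.04-fold. The fitted value was 1.02 ± 0.21 SE on the log2 scale (unadjusted p = 0.00132, adjusted p = 0.274 by edgeR, adjusted p = 0.000842 by DESeq2). It was between 0.84 and 1.12 with any 1 library left out and 0.95 when the muscle level of each library was a covariate. Only DTRScxLin replicate 2 had a muscle level within the WT range, so values from the covariate fit leaned mainly on that tendon.

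*Adamts1*, which cuts aggrecan and versican and is induced in wounds, had 1993, 1998 and 1786 normalized counts in WT tendons. In DTRScxLin tendons it had 2889.9, 2641 and 2521. The groups were well apart, with 1926 ± 121 and 2684 ± 188 (SD, n = 3 each), although the fold was only 1.39. On the log2 scale this was 0.48 ± 0.09 SE (unadjusted p = 0.00083, adjusted p = 0.268 by edgeR, adjusted p = 0.00799 by DESeq2). It ranged from 0.42 to 0.52 over the left-out libraries and was 0.45 with the muscle covariate. Without a filter on low counts, edgeR gave adjusted p-values of 0.0499 for *Adamts1* and 0.0409 for *Adamts16*.

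*Adamts5*, the main aggrecanase of mouse cartilage, gave 6749, 6574 and 5746 normalized counts across WT tendons, compared with 7633, 6957 and 7943 across DTRScxLin tendons. The groups did not overlap, but the gap between WT replicate 1 and DTRScxLin replicate 2 was small beside the spread within either group. The fitted value was 0.24 ± 0.10 SE on the log2 scale (unadjusted p = 0.0416, adjusted p = 0.449 by edgeR). *Adamts19* gave 196, 329 and 159 in WT, compared with 302, 467 and 349 in DTRScxLin tendons. DTRScxLin replicate 1 was below WT replicate 2, so the groups overlapped (log2 fold change 0.71 ± 0.30 SE, unadjusted p = 0.0483, adjusted p = 0.453 by edgeR).

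The other proteoglycan-cutting members varied more between tendons. *Adamts4*, the second main aggrecanase, had 1669, 1316 and 807 normalized counts across WT tendons and 2491, 469.5 and 1558 in DTRScxLin tendons, so that DTRScxLin tendons gave both the highest and the lowest value. *Adamts15* gave 3656, 4121 and 1884 in WT, compared with 3567, 3619.5 and 4118 in DTRScxLin tendons, and WT replicate 3 alone was low. *Adamts8*, *Adamts9* and *Adamts20* overlapped as well, with log2 fold changes of -0.09, 0.11 and 0.08 and standard errors of 0.38, 0.14 and 0.37. Of the 7 genes of this group, 6 were fitted above 0 with a median of 0.23, against 51.5% of all genes tested and a median of 0.0082. An unadjusted p under 0.05 was reached by 2 of the 7, against 11% of all genes tested. Some signs turned with 1 library left out. *Adamts4* had -0.32 without DTRScxLin replicate 1, *Adamts15* -0.048 without WT replicate 3 and *Adamts20* -0.13 without DTRScxLin replicate 2, while *Adamts8* had 0.36 without WT replicate 2.

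*Adamts12*, which cuts cartilage oligomeric matrix protein (COMP) as does *Adamts7*, was among the 10 highest of the 48 genes by normalized count. It gave 5085, 3629 and 4787 in WT, compared with 7902, 3638 and 5304 in DTRScxLin tendons. Its log2 fold change (0.32 ± 0.30 SE, adjusted p = 0.714 by edgeR) rested on DTRScxLin replicate 1 and was -0.013 without it. *Adamts7* had 0.18 ± 0.18 SE. *Adamts6* and *Adamts10*, which act on fibrillin microfibrils, had 0.19 and 0.16 with standard errors of 0.10 and 0.12. *Adamts17* and *Adamts18* overlapped between the groups (0.59 and 0.11, standard errors 0.42 and 0.39). All 8 tested genes of this remaining ADAMTS group were fitted above 0, with a median of 0.25, and 2 had an unadjusted p under 0.05, where all genes tested had 51.5% above 0 and 11% at that p. The signs did not hold under every setting. *Adamts12* had -0.32 with the muscle covariate, *Adamts7* and *Adamts12* had -0.03 and -0.013 without DTRScxLin replicate 1, and *Adamts18* had -0.055 and -0.081 without DTRScxLin replicates 2 and 3, respectively.

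Of the ADAMTS-like genes, *Adamtsl3*, *Adamtsl5*, *Adamtsl4* and *Adamtsl1* lay between 137 and 418 counts per kilobase and *Adamtsl2* at 5.06. Of the 5, 3 were fitted above 0, with a median of 0.055, against 51.5% of all genes tested. *Adamtsl4*, known for its part in fibrillin fibres of the eye, gave 1231, 1868 and 1693 normalized counts across WT tendons, compared with 1270.3, 1592 and 1462 across DTRScxLin tendons. The lowest of both groups was replicate 1, and the groups overlapped (log2 fold change -0.15 ± 0.16 SE). *Adamtsl1* had 2958 in DTRScxLin replicate 1 and 1135 to 1805 in the other 5 libraries. None of the 5 had an unadjusted p under 0.05.

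The inhibitors differed from each other. *Timp1*, the inducible TIMP of wounds and inflammation, gave 14806, 10197 and 15687 normalized counts across WT tendons, compared with 25771, 15864 and 21419 across DTRScxLin tendons. The groups did not overlap, but DTRScxLin replicate 2 was only just above WT replicate 3. Means were 13563 ± 2949 and 21018 ± 4966 (SD, n = 3 each), 1.55-fold, or 0.63 ± 0.22 SE on the log2 scale (unadjusted p = 0.0254, adjusted p = 0.417 by edgeR, adjusted p = 0.0699 by DESeq2). With the muscle covariate, which leaned on DTRScxLin replicate 2, it was 0.22, and with a library left out between 0.46 and 0.80. *Timp1* lies on the X chromosome, and its lowest value in either group came from a library with high *Xist* (WT replicate 2 and DTRScxLin replicate 2). DTRScxLin replicate 3, which also had high *Xist*, was above every WT tendon at 21419. The part of sex was not tested.

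*Timp2*, which both inhibits MMPs and serves MMP14 in the activation of MMP2, had 178847, 181844 and 188366 normalized counts in WT tendons. In DTRScxLin tendons it had 222765, 141057 and 158372. The WT tendons were close together and lay between the DTRScxLin values (log2 fold change -0.07 ± 0.20 SE, adjusted p = 0.919 by edgeR). *Timp3*, the TIMP that is bound to the matrix and also inhibits ADAMTS4 and ADAMTS5, gave 13434, 15972 and 21342 in WT, compared with 13706, 18284 and 15391 in DTRScxLin tendons. The groups overlapped almost fully (log2 fold change -0.10 ± 0.19 SE, adjusted p = 0.876 by edgeR), and 21.3% of its exon bases in GENCODE vM21 are shared with *Syn3* on the other strand, so its count is uncertain if strand was not used.

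*Timp4*, the least abundant TIMP, is known from heart, muscle and fat. It gave 94.4, 196 and 165 normalized counts across WT tendons, compared with 65.9, 51.6 and 7.19 across DTRScxLin tendons. Each DTRScxLin tendon was below each WT tendon, and DTRScxLin replicate 3 was far below the others. The fitted value was -1.86 ± 0.73 SE on the log2 scale (unadjusted p = 0.0412, adjusted p = 0.447 by edgeR, adjusted p = 0.0438 by DESeq2). It was -1.37 without DTRScxLin replicate 3 and -1.84 with the muscle covariate. An adipocyte list of 10 genes, chosen after the values were seen, held 0.00547% to 0.00868% of counts in WT and 0.00172% to 0.00262% in DTRScxLin tendons, with 8 of the 10 present in every library and 0 of the 9 tested fitted above 0. Its part in the *Timp4* difference was not tested.

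**Figure D2:**
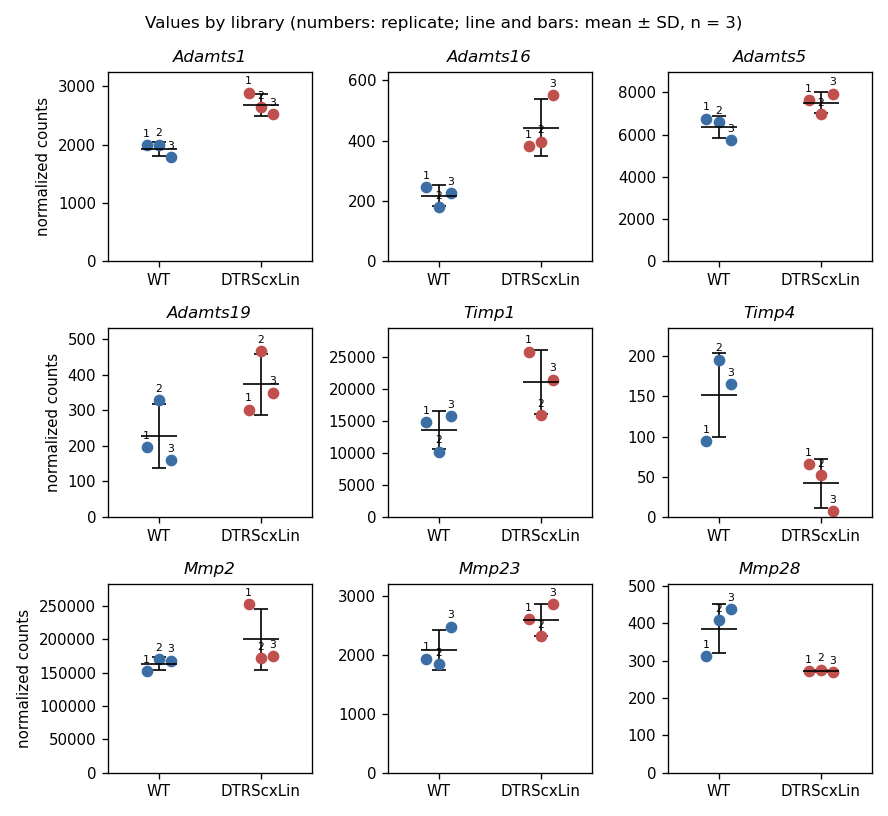
Normalized counts (y axes, from 0) of the 8 genes with an unadjusted p under 0.05 and of *Mmp2*, in WT (blue) and DTRScxLin (red) tendons. Points are libraries with their replicate number, and lines and bars give mean ± SD (n = 3). The groups are separate in 7 panels and overlap in *Adamts19* and *Mmp23*.

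The tested gelatinases and collagenases were all highest in DTRScxLin replicate 1. *Mmp2* gave 151652, 170349 and 167720.0 normalized counts across WT tendons, compared with 252574, 171275 and 175026 across DTRScxLin tendons. The groups did not overlap, yet DTRScxLin replicates 2 and 3 were only 0.544% and 2.75% above the highest WT value and only DTRScxLin replicate 1 was far above. The fitted value was 0.29 ± 0.19 SE on the log2 scale (unadjusted p = 0.17, adjusted p = 0.587 by edgeR) and 0.08 without that library. *Mmp9*, gelatinase B of neutrophils, macrophages and osteoclasts, gave 1639.8, 577 and 287 in WT, compared with 4519, 567 and 872 in DTRScxLin tendons. Its log2 fold change, 1.25 ± 1.13 SE, was -0.22 without DTRScxLin replicate 1.

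*Mmp13* gave 226496, 116899 and 116311 normalized counts across WT tendons, compared with 296679, 80619.6 and 116597 across DTRScxLin tendons. Replicate 1 of either group was high, and the groups overlapped (log2 fold change 0.10 ± 0.56 SE, adjusted p = 0.961 by edgeR). Without DTRScxLin replicate 1 the value was -0.64. *Mmp8*, the collagenase stored in neutrophils, had 16 to 22 normalized counts in 5 libraries and 83.5 in DTRScxLin replicate 1. A neutrophil list of 10 genes held 0.0243% of the counts of that library and 0.00195% to 0.00468% of the others (WT 0.00195% to 0.00428%, DTRScxLin 0.00292% to 0.0243%), with 7 of the 10 genes present in every library and *Ngp*, *Ly6g* and *Elane* at 0 in at least 1. An osteoclast list of 7 genes held 0.161% in the same library, against 0.114% to 0.137% in the others. Most of that sum was *Ctsk* (47511 to 68428 normalized counts), and other genes of the list stood further apart. In that library *Acp5* had 4083 (others 955 to 1795), *Atp6v0d2* 5260 (1857 to 2733), *Ocstamp* 141 (18.7 to 40.1), *Dcstamp* 79.3 (11.3 to 22.3) and *Oscar* 36.1 (5.74 to 25.7). *Calcr*, at most 4.06 in any library, had 0 there. The part of either list in the levels of *Mmp8* and *Mmp9* was not tested.

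The stromelysin genes followed the same tendons. *Mmp3*, which cuts proteoglycans and activates other MMP precursors, gave 11313, 7694 and 6401 normalized counts across WT tendons, compared with 14253, 6459 and 4779.9 across DTRScxLin tendons. *Mmp10*, its close relative, gave 3758, 1045 and 1313 in WT, compared with 3009, 414 and 1287 in DTRScxLin tendons. In both genes replicate 1 of each group was above the other 4 libraries, and the groups overlapped (log2 fold changes 0.0047 and -0.38, standard errors 0.48 and 0.92, adjusted p = 0.998 and 0.911 by edgeR). *Mmp11*, stromelysin-3 of fibroblasts in remodeling tissue, gave 3487, 2096 and 2451 in WT, compared with 3411, 1279 and 1985 in DTRScxLin tendons. *Mmp12*, the elastase of macrophages, gave 463, 164 and 507 in WT, compared with 308, 364 and 261 in DTRScxLin tendons, and WT replicate 2 was lowest. A macrophage list of 10 genes held 0.372% to 0.456% of counts in WT and 0.403% to 0.441% in DTRScxLin tendons. All 10 genes were present in each library, and 4 of the 10 were fitted above 0. *Lyz2* was the largest part of this sum (81974 to 110332 normalized counts), so the sum says little about smaller genes. *Cd163* was lower without overlap, at 2512, 2713 and 2122 (WT) against 489, 1123 and 944 (DTRScxLin). Its log2 fold change was -1.52 ± 0.31 SE (adjusted p = 0.293 by edgeR, 2.7e-06 by DESeq2). The groups overlapped in the other genes of the list.

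*Mmp14* gave 79135, 60044 and 62532 normalized counts across WT tendons, compared with 120614, 48054 and 68337 across DTRScxLin tendons. DTRScxLin tendons again gave both extremes (log2 fold change 0.23 ± 0.33 SE, adjusted p = 0.826 by edgeR), and the value was -0.21 without replicate 1. The other membrane-type genes were much lower per kilobase. *Mmp16* and *Mmp15* had 130.0 and 124, and the lipid-anchored *Mmp17* and *Mmp25* had 25.4 and 27. *Mmp16* was the steadiest of all 5, at 1021 to 1228 normalized counts in the 6 libraries. *Mmp25*, leukolysin, ranged from 72.7 to 305, with its highest value in WT replicate 1. None of the 5 tested membrane-type genes had an unadjusted p under 0.05.

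**Figure D3:**
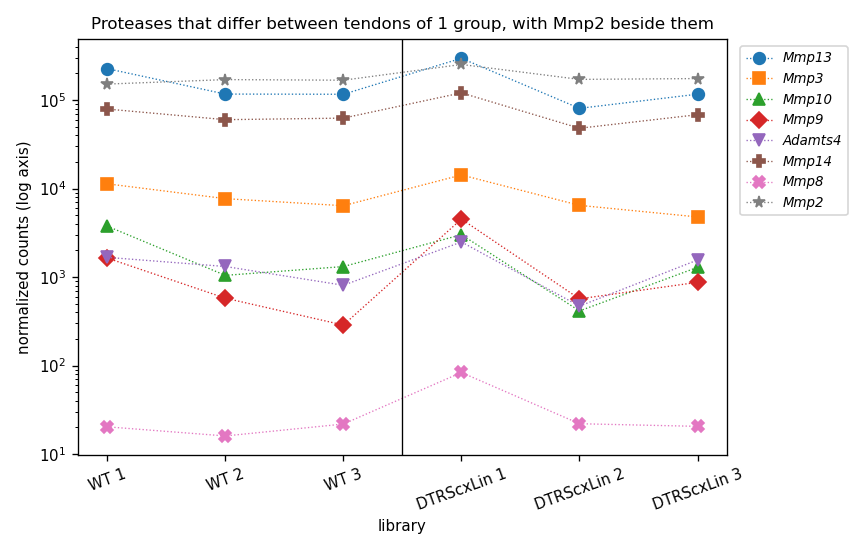
Normalized counts on a log axis (y) in the 6 libraries (x) for *Mmp13*, *Mmp3*, *Mmp10*, *Mmp9*, *Adamts4*, *Mmp14*, *Mmp8* and *Mmp2*. DTRScxLin replicate 1 was highest for all but *Mmp10*, which was highest in WT replicate 1, while *Mmp2* lay between 151652 and 175026 in the other 5 libraries.

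Of the remaining MMPs, *Mmp28* (epilysin, known from skin and quiescent tissue) differed most clearly. It gave 312, 408 and 437 normalized counts across WT tendons, compared with 271, 275 and 269 across DTRScxLin tendons. The DTRScxLin values lay within a few counts of each other and below each WT value (386 ± 65.8 and 272 ± 3.22, SD, n = 3 each). The fitted value was -0.50 ± 0.17 SE on the log2 scale (unadjusted p = 0.0193, adjusted p = 0.395 by edgeR, adjusted p = 0.153 by DESeq2). The keratinocyte list held 0.298%, 0.184% and 0.0021% of counts in WT and 0.00101%, 0.00174% and 0.0278% in DTRScxLin tendons, with 4 of its 10 genes present in every library and 0 of 10 fitted above 0. Its part in the *Mmp28* difference was not tested. In *Mmp28*, 12% of the exon bases are shared with a gene on the other strand. *Mmp23*, a membrane-bound MMP without a hemopexin domain, gave 1940.1, 1846 and 2482 in WT, compared with 2614, 2326 and 2863 in DTRScxLin tendons. WT replicate 3 was above DTRScxLin replicate 2, so the groups overlapped (log2 fold change 0.32 ± 0.13 SE, unadjusted p = 0.0487, adjusted p = 0.453 by edgeR).

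*Mmp19* gave 3526, 3662 and 3197 normalized counts across WT tendons, compared with 6022, 3653 and 3703 across DTRScxLin tendons, and DTRScxLin replicate 1 alone stood above the rest. Its log2 fold change (0.37 ± 0.20 SE, adjusted p = 0.528 by edgeR) was 0.08 without that library, and 28.3% of its exon bases are shared with genes on the other strand. *Mmp27* had 33.3 to 81.2 normalized counts and overlapped between the groups.

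Over all 41 genes, DTRScxLin replicate 1 was the highest of the 6 libraries for 16 (39%), against 22.9% of all genes tested, and DTRScxLin replicate 2 for 2 (4.88%), against 17.1%. WT replicates 1 to 3 were highest for 4, 7 and 4 genes (17.6%, 13.6% and 14.4% of all genes) and DTRScxLin replicate 3 for 8 (14.5%). These genes also varied more between tendons of a group than most. The median standard deviation of the log2 level was 0.32 in WT and 0.32 in DTRScxLin tendons, against 0.16 and 0.19 over all genes tested.

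**Figure D4:**
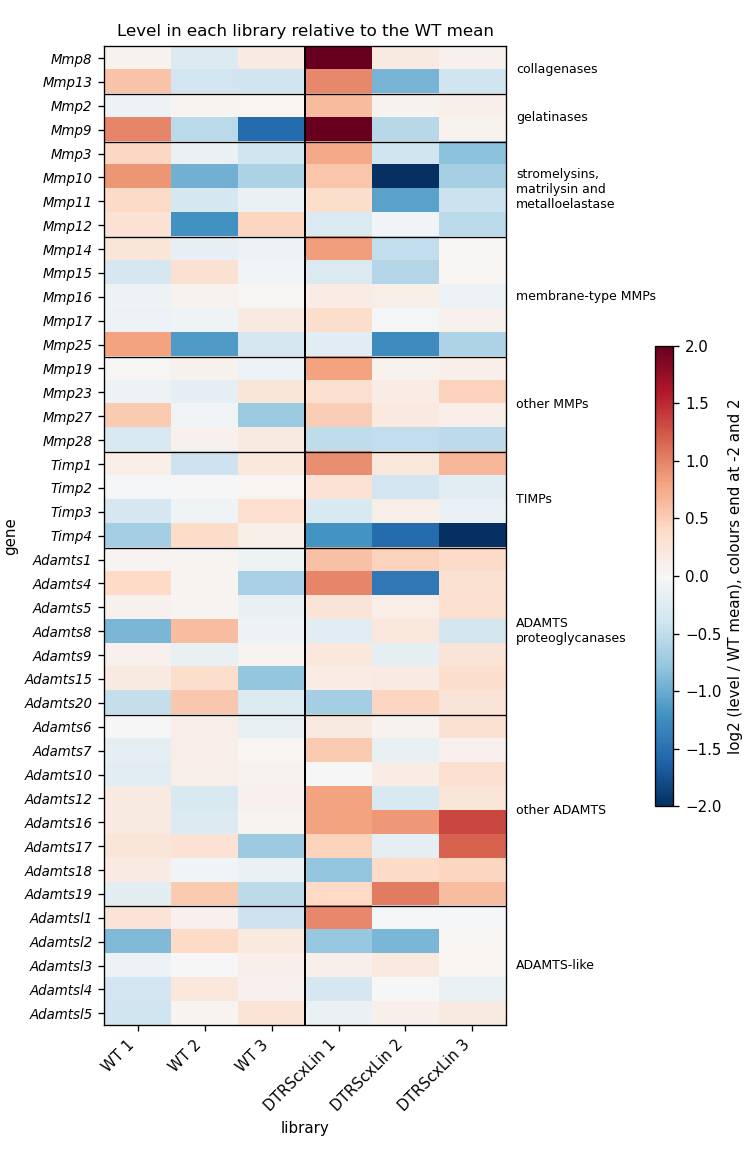
Level of each of the 41 tested genes (rows, ordered by role) in each library (columns) as log2 of its ratio to the WT mean, red for higher and blue for lower, with colours ending at -2 and 2. DTRScxLin replicate 1 is the highest library in 16 rows, and *Adamts1*, *Adamts16* and *Timp1* are red in all 3 DTRScxLin columns.

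Ratios within a library do not depend on the scaling between libraries. They were chosen after the values were seen and are given without a test. *Mmp2* over *Timp2*, both per kilobase, was 0.98, 1.08 and 1.03 in WT and 1.31, 1.40 and 1.28 in DTRScxLin tendons. The groups were separate, although both genes differed widely between DTRScxLin tendons. *Timp1* made up 26%, 19.1% and 25.7% of the summed TIMP level per kilobase in WT and 33%, 31.7% and 36.2% in DTRScxLin replicates 1 to 3, and *Timp2* 70.4% to 77.6% and 61% to 65.1%. The ratio of all MMPs to all TIMPs was 2.42, 1.87 and 1.62 in WT and 2.52, 1.70 and 1.71 in DTRScxLin tendons, so replicate 1 was the highest of either group and the groups overlapped. *Mmp13* over *Mmp2* was 1.88, 0.865 and 0.875 in WT and 1.48, 0.594 and 0.84 in DTRScxLin tendons, again with replicate 1 highest in both groups.

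**Figure D5:**
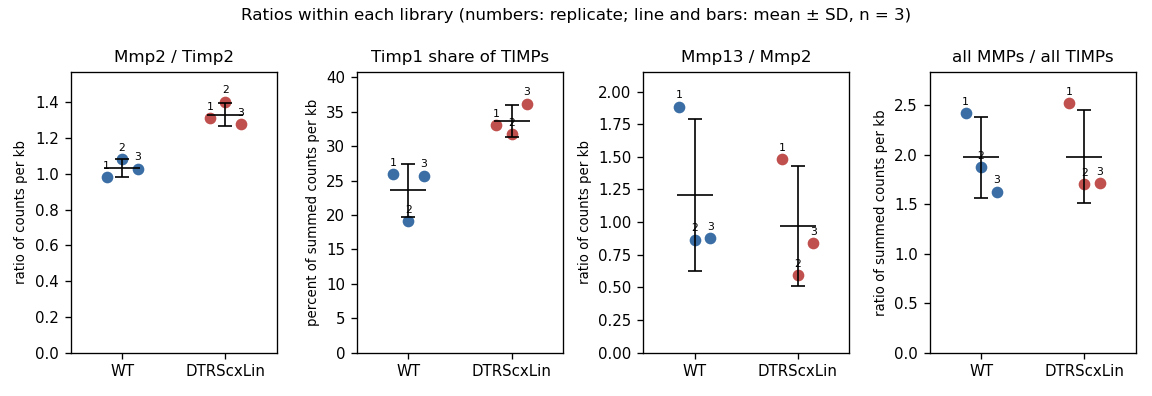
Ratios of counts per kilobase within each library (y axes, from 0) in WT (blue) and DTRScxLin (red) tendons, with replicate numbers, mean and SD (n = 3). *Mmp2* over *Timp2* and the share of *Timp1* are separate between the groups, while *Mmp13* over *Mmp2* and all MMPs over all TIMPs overlap.

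Genes that act with these enzymes were taken from lists of 6 kinds. For comparison with their counts, 11% of all genes tested had an unadjusted p under 0.05 and 51.5% were fitted above 0. Of 14 tested activators and inhibitors, none was called by edgeR. *Tfpi2*, a serine protease inhibitor of the matrix, was higher at an unadjusted p under 0.05, with 457 normalized counts in WT and 878 in DTRScxLin tendons (log2 fold change 0.94 ± 0.20 SE). *Spock2*, a testican that has been tied to MMP regulation, gave 644, 730.5 and 706 in WT, compared with 407, 441 and 404 in DTRScxLin tendons (-0.73 ± 0.11 SE), and was lower at an unadjusted p under 0.05. DESeq2 called both genes (adjusted p = 0.00142 and 0.000121), while edgeR gave adjusted p-values of 0.274 and 0.199. The proprotein convertase *Furin*, which activates membrane-type MMPs, and the membrane inhibitor *Reck* overlapped between the groups (0.013 and 0.24).

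Of the 8 ADAM proteases, 7 were fitted above 0 with a median of 0.19, against 51.5% of all genes tested and a median of 0.0082, and none had an unadjusted p under 0.05. DTRScxLin replicate 1 was the highest library for *Adam8*, *Adam9*, *Adam10*, *Adam12*, *Adam17* and *Adam19*, but not for *Adam15* and *Adam33*. *Adam8* had 2154 normalized counts there and 623 to 1069 in the others. Of 6 other matrix proteases (the cathepsins and fibroblast activation protein), 1 was higher at an unadjusted p under 0.05. This was *Fap*, a surface protease of activated fibroblasts, with 6450.4 normalized counts in WT and 7889 in DTRScxLin tendons (log2 fold change 0.29 ± 0.10 SE, adjusted p = 0.39 by edgeR). The collagenolytic *Ctsk* overlapped (0.20 ± 0.16 SE). Of 4 tested uptake receptors and their partners, *Mrc2*, the receptor that takes up cut collagen, was higher at an unadjusted p under 0.05, with 10306.5, 9516 and 10406 in WT and 18449, 10691 and 13099 in DTRScxLin tendons (0.48 ± 0.19 SE, adjusted p = 0.447 by edgeR). DTRScxLin replicate 1 was again the highest. Of 9 tested substrates, *Fbn1* alone had an unadjusted p under 0.05 and was higher (0.74 ± 0.13 SE), while the aggrecanase substrates *Acan* and *Vcan* had 0.21 and 0.42 with standard errors of 0.33 and 0.20. Among the 2 relatives without protease activity, *Papln* was lower at an unadjusted p under 0.05 (-1.05 ± 0.41 SE), at a low level of 41.8 normalized counts in WT and 20.2 in DTRScxLin tendons.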

How the data were processed

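Per the paper, FastP cleaned the single-end reads and featureCounts assigned them to genes, and these raw counts were deposited. A second deposited file holds a signal, the counts after division by the DESeq2 size factors (0.973 to 1.06), from which 100% of the counts were recovered within 0.01 of a whole number, and edgeR called 0 genes on these reads. Aligner, genome build and strand setting are not given in the sources used here, and 13 of the 48 genes share exon bases with a gene on the opposite strand. The labels name both a TruSeq Stranded and a SMARTER library kit. Columns were matched to samples by the labels.

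The raw counts were fitted with edgeR 4.0.16 under R 4.3.3 (filterByExpr by genotype, TMM, robust quasi-likelihood fit, genotype as the only term, Benjamini-Hochberg adjustment over 17496 genes, threshold 0.05), with DESeq2 1.42.0 and limma 3.58.1 as alternatives. The study used DESeq2. Exon lengths were unions of GENCODE vM21 exons. Members, lists and alternatives were chosen with earlier results of these data known. Genes given with every library were those with an unadjusted p under 0.05, a DESeq2 call, no overlap between groups or one of the 10 highest mean levels, and pathway genes were named, some by group means only, where the unadjusted p was under 0.05, at most 3 per list, except 1 that is not reported here; others were named after their values were seen. The fits were tested on simulated data, in which DESeq2 made more false calls than edgeR and also called more of the genes that were truly changed. Replicates differed by 36.6 to 190.0 chi-square per degree of freedom, so over whole libraries counting error was small beside differences between tendons and n = 3 limits the precision. For genes with few reads, such as *Timp4* with 7 in DTRScxLin replicate 3, this need not hold.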

Additional observations from a re-analysis of the deposited data

How the results depend on the processing

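Of 16 genes given in full, 10 kept their direction under all 17 alternatives, among them *Adamts1*, *Adamts16*, *Timp1*, *Timp4* and *Mmp28*. The number of genes past an adjusted p of 0.05 was 0 in edgeR, 3 in DESeq2 and 2 without a filter on low counts (*Adamts1* and *Adamts16*), and 0 with any 1 library left out. Of all genes, 2.65% passed in DESeq2, 0.27% without the filter and 3.02% without DTRScxLin replicate 2. The number past an unadjusted p of 0.05 was 8, 3 with the skeletal muscle level as covariate (*Adamts1*, *Adamts16* and *Adamts19*) and 4 to 8 with a library left out, down to 4 without WT replicate 2, WT replicate 3 or DTRScxLin replicate 3 and to 5 without DTRScxLin replicate 1. Over all genes tested, 1918 of 17496 passed in the main fit and 1120 of 17496 with the covariate. Without WT replicate 2 and 3 the numbers were 994 of 17840 and 2351 of 18001. Without DTRScxLin replicates 1, 2 and 3 in turn they were 1309 of 18037, 2994 of 17998 and 1532 of 17958. The number without overlap was 7, and 10 to 13 with a library left out, as fewer samples are compared. The share of all genes was 16.8% with all 6 libraries and is not given here for the left-out libraries. The median log2 fold change was 0.14, from 0.0004 to 0.24 over the left-out libraries and 0.019 with the muscle covariate. The other 6 changed direction under at least 1 alternative. *Mmp13* was at -0.044 in limma-voom, -0.047 with the replicate block, -0.049 on the deposited normalized counts in limma (pseudocount 1) and -0.95 with the muscle covariate, and between -0.64 and 0.50 over the left-out libraries. *Mmp3* was at -0.11 in limma-voom, -0.0002 with RLE factors, -0.0063 with at least 10 counts in every library, -0.11 with the replicate block, -0.11 on the deposited normalized counts and -0.47 with the muscle covariate, and between -0.60 and 0.29 over the left-out libraries. With the muscle covariate *Mmp14* was at -0.50, *Timp3* at 0.049 and *Adamts12* at -0.32. Over the left-out libraries *Mmp14* ranged from -0.21 to 0.49, *Timp3* from -0.24 to 0.10, *Adamts12* from -0.013 to 0.56 and *Timp2* from -0.29 to 0.060. Only DTRScxLin replicate 2 had a muscle level within the WT range, at 2.49% of counts against 2.05% to 2.83%. Values with the muscle covariate therefore leaned on that tendon and cannot separate muscle from genotype, and the cause of these changes was not tested. Replicate numbers did not pair the samples (correlations of deviations -0.19, -0.15 and -0.68, and 0 of 3 WT libraries matched its own number best). With the replicate block 7 genes had an unadjusted p and 0 an adjusted p under 0.05, against 1888 and 1 of all 17496 genes. Reads recovered from the deposited normalized counts, an alternative chosen after seeing the data and counted among the 17, gave the values of the deposited counts. They are the same counts, so their agreement was fixed in advance and is no evidence that a direction holds. *Timp4* was not tested with at least 10 counts in every library, since DTRScxLin replicate 3 had 7.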

Other observations

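A few values belong to no comparison above. The mast cell list of 6 genes held 0.0076% to 0.0104% of counts in WT and 0.00212% to 0.00721% in DTRScxLin tendons, with all 6 genes present in every library and 0 of the 6 fitted above 0. The endothelial list of 10 genes held 0.0704% to 0.0908% in WT and 0.0687% to 0.0822% in DTRScxLin tendons, with 1 of 10 above 0. The cartilage and bone list of 10 genes held 0.0175% to 0.025% in WT and 0.0136% to 0.0264% in DTRScxLin tendons. Most of that sum was *Acan*, and 3 of the 9 tested genes of the list were fitted above 0, against 51.5% of all genes tested. *Thsd4*, a relative of the ADAMTS-like genes, gave 216, 282 and 327 normalized counts across WT tendons, compared with 224, 195 and 198 across DTRScxLin tendons (log2 fold change -0.42 ± 0.20 SE, adjusted p = 0.482 by edgeR). The inhibitor gene *A2m*, which did not pass the filter on low counts, had 13.2, 7.53 and 34.3 in WT and 3.09, 4.78 and 4.11 in DTRScxLin tendons. *Fbn2*, the fibrillin of developing matrix, had 3737, 3214 and 2800.3 in WT and 7719, 2982 and 7068 in DTRScxLin tendons, so DTRScxLin replicate 2 was within the WT range (log2 fold change 0.87 ± 0.38 SE, adjusted p = 0.477 by edgeR).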
